A study of Mus musculus with 10 samples.

Results

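Glycolysis and hypoxia genes are described here as a set of 30 genes in mouse regulatory T cells (Tregs): 3 transporters of glucose and lactate, 14 glycolytic enzymes, Pdk1 with the mitophagy genes Bnip3 and Bnip3l, and 10 genes of oxygen sensing and other responses to low oxygen. They were chosen by gene symbol from textbook knowledge of the pathways, with earlier results of these data known. All 30 were present among the 23992 gene symbols of the count tables. Where a symbol had several transcript rows, as 8 of the 30 did, the row with the most reads on average was used.

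The 10 RNA-seq libraries came from C57BL/6J mice and fall into 4 groups. Natural Tregs from wild-type spleen were held for 24 h under T cell receptor (TCR) stimulation with anti-CD3 plus anti-CD28, either without TSLP (2 libraries, the TCR group) or with TSLP, an epithelial alarm cytokine (2 libraries, the TCR + TSLP group). Lung Tregs came from OVA-immunized mice of genotype Foxp3YFP-Cre, which the labels call wild-type (3 libraries, the lung control group), or Crlf2fl/fl Foxp3YFP-Cre, labelled conditional knock-out (3 libraries, the Crlf2-deleted group). Crlf2 encodes the specific chain of the TSLP receptor. Both lung groups carry a YFP-Cre fusion expressed from Foxp3, so the recombinase is present in the controls too, and deletion of Crlf2 depends on Foxp3 expression. Animal age, pooling of animals, the immunization schedule and the TSLP dose were not stated. Nor do the labels tie replicates to individual mice or dishes, and each p-value therefore rests on library-to-library spread, which could be technical.

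Gene reads per library numbered 27237312 to 51671903 in the spleen groups and 1439675 to 18349039 in the lung groups, with the lowest total in lung control replicate 2. Crlf2 itself stood at 115 ± 27.7 CPM (counts per library total, scaled by TMM) in lung controls and 6.44 ± 2.76 in Crlf2-deleted libraries (SD, n = 3 each), in the direction the labels give. Foxp3 and the other Treg and T cell markers were present in every library. Lung control replicate 3 stood apart: its summed RPKM (reads per kilobase of transcript, scaled to library size) over 7 erythroid markers was 46426, against 445 to 1487 in the other lung libraries. It also had the highest lung value of all 11 macrophage and dendritic cell markers, all 6 neutrophil markers and all 6 B and plasma cell markers. Each result from lung controls is therefore given with and without that library where it matters. Epithelial markers summed to 1168 to 27992 RPKM in lung libraries, mostly Scgb1a1, and to 3.14 to 3.48 in spleen libraries.

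Glycolysis splits glucose into pyruvate in the cytosol, and Ldha turns pyruvate into lactate, which leaves the cell through Slc16a3. Activated T cells raise glycolysis, while resting Tregs are known to rely more on mitochondrial oxidation. When oxygen is low, prolyl hydroxylases such as Egln1 and Egln3 no longer mark HIF-1 alpha for destruction, and the HIF complex then switches on transporters, most glycolytic enzymes, Pdk1 (which holds pyruvate back from mitochondria) and genes such as Vegfa, Bnip3 and Egln3 itself. T cell receptor and mTOR signalling can raise HIF-1 alpha without low oxygen.

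Compared per length, by the deposited RPKM, the members spanned a wide range in every group. In the TCR group Gapdh was highest, at 1233 and 1532 RPKM, followed by Ldha at 529 and 696 RPKM. Mxi1, a MAX-binding antagonist of Myc, was lowest, at 1.13 and 1.30 RPKM. Together the 30 members took 1.91 and 2.08% of all gene reads in the TCR group, 2.43 and 2.42% with TSLP, 0.607 to 0.728% in lung controls and 0.704 to 0.766% in Crlf2-deleted libraries, with most of these reads in the 14 enzymes. Neither spleen group overlapped a lung group in that share, and the pair of spleen groups did not overlap each other. Such shares are on the scale of library totals, where 5059 of 13214 genes tested were called higher with TSLP and 2000 lower. After TMM scaling the 14 enzymes had a median log2 difference of 0.11 with TSLP, and 3 of them passed the test. Spleen groups did not overlap for 75.4% of all single genes tested. The 10 oxygen-response genes took far fewer reads: 0.0605 and 0.0653% without TSLP, 0.0861 and 0.0854% with it, 0.0281 to 0.0341% in lung controls and 0.0473 to 0.0483% in Crlf2-deleted libraries. In that share all 4 groups were separate from each other. Between the lung groups only 1 of these 10 genes, Ero1l, passed the test described below. Their median log2 difference there was 0.12, so the summed share does not describe each gene. Lung groups did not overlap for 22.0% of all single genes tested. Several enzymes, among them Gapdh, Ldha, Pgk1, Tpi1, Aldoa, Pkm, Pgam1 and Eno1, have near-identical processed copies in the mouse genome, and how the counting treated reads that match several places was not stated, so their absolute levels are uncertain.

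**Figure D1:**
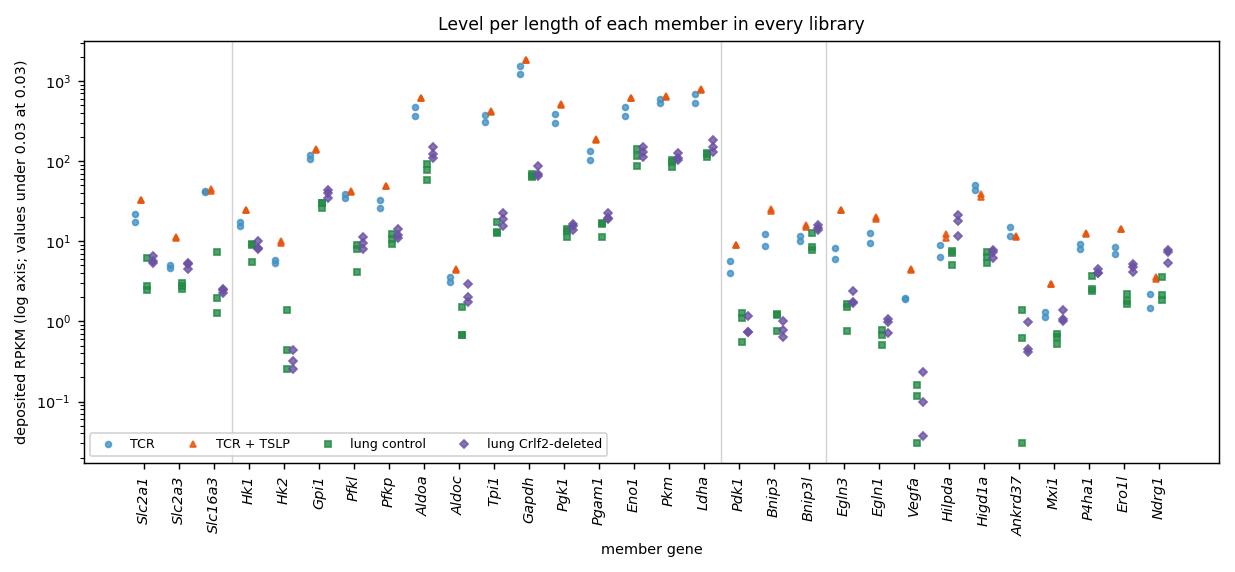
Deposited RPKM (log axis) of each of the 30 members in every library, with 1 point per library and a colour per group. Gapdh, Ldha, Pkm, Eno1 and Aldoa top the spleen groups, and lung libraries lie lower for most members, for example Gapdh at 63.6 to 69.5 RPKM in lung controls.

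The first comparison asks which members change when TSLP is added to TCR stimulation of spleen Tregs. Of the 30 members, 13 were higher with TSLP, 3 were lower and 14 did not pass edgeR's quasi-likelihood test at a Benjamini-Hochberg adjusted p of 0.05. Over all 13214 genes tested 22.7% were called higher and 23.1% lower, 45.8% in all, so calls were common in this comparison. The median log2 difference was 0.21 over the members and 0.0079 over all genes tested. By role the median was 0.38 for the 3 transporters, 0.11 for the 14 enzymes, 0.53 for Pdk1 with Bnip3 and Bnip3l, and 0.48 for the 10 oxygen-response genes. Groups of 2 did not overlap for 26 of the members, against 75.4% of all genes. These calls depend on how libraries are put on a common scale. On library totals alone the median of all genes was 0.24, and 21 members were higher and 2 lower. Of all 13214 genes, 5059 were then higher and 2000 lower. On the deposited RPKM scale with limma the median was 0.20, with 22 members higher and none lower. There 5679 of all genes were higher and 1249 lower.

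Among the transporters, Slc2a3, the high-affinity neuronal-type glucose transporter GLUT3 (chr6:122727809-122802363, minus strand, GRCm38), stood at 53.0 and 51.7 CPM without TSLP and at 91.3 and 93.1 with it. The groups were well separated, a log2 difference of 0.82 (SE 0.09, edgeR quasi-likelihood adjusted p = 0.000372). Slc2a1, the main glucose transporter GLUT1, read 127 and 141 without TSLP and 177 and 173 with it, again with no overlap (log2 difference 0.38, SE 0.09, edgeR adjusted p = 0.0105). Slc16a3, the lactate exporter MCT4, went the other way, from 292 and 270 to 219 and 229 (log2 difference -0.33, SE 0.09, edgeR adjusted p = 0.017). On the RPKM scale that Slc16a3 difference was 0.04 and did not pass the test, nor did it on library totals (-0.10).

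Of the 14 glycolytic enzymes 3 rose with TSLP and none fell, where 22.7% of all genes tested rose and 23.1% fell. The share that rose was thus near that of all genes. Hk2, the inducible hexokinase that traps glucose in the cell, read 92.5 and 75.1 CPM without TSLP and 110 and 116 with it (log2 difference 0.43, SE 0.11, edgeR adjusted p = 0.0162). Pfkp, the platelet-type phosphofructokinase of the committed step, read 300 and 330 against 407 and 404 (log2 difference 0.37, SE 0.09, edgeR adjusted p = 0.0117). Pgam1, which moves the phosphate of phosphoglycerate, read 538 and 621 against 697 and 720 (log2 difference 0.29, SE 0.10, edgeR adjusted p = 0.0429). In each of these 3 both TSLP libraries lay above both controls. The other 11 enzymes had log2 differences from -0.18 (Pfkl, the liver-type phosphofructokinase) to 0.22 (Hk1, the constitutive hexokinase). Ldha differed by -0.01 (SE 0.11) and Gapdh by 0.03 (SE 0.10), and in both the groups overlapped.

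Pdk1 and Bnip3 were both higher with TSLP. Pdk1, the kinase that switches off pyruvate dehydrogenase, read 59.2 and 74.1 without TSLP and 96.6 and 95.9 with it (log2 difference 0.53, SE 0.12, edgeR adjusted p = 0.00776). Bnip3, a mitophagy receptor on the outer mitochondrial membrane, read 43.2 and 54.8 against 92.5 and 87.2 (log2 difference 0.88, SE 0.12, edgeR adjusted p = 0.00114). Its relative Bnip3l differed by 0.13, which did not pass the test. The groups of Pdk1 and Bnip3 did not overlap, with the first TCR library the lower of its pair in both.

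Of the 10 oxygen-response genes 6 rose and 2 fell, where 22.7% of all genes tested rose and 23.1% fell. Groups of 2 did not overlap for 75.4% of all genes. Egln3, the HIF prolyl hydroxylase that is itself induced by HIF, changed most among all 30 members, from 45.8 and 56.6 CPM to 136 and 137 (log2 difference 1.41, SE 0.12, edgeR adjusted p = 0.000159). Mxi1 read 16.6 and 17.1 against 31.6 and 31.6 (log2 difference 0.91, SE 0.10, edgeR adjusted p = 0.000387). Vegfa, the endothelial growth factor, read 19.4 and 17.7 against 32.4 and 33.0 (log2 difference 0.81, SE 0.10, edgeR adjusted p = 0.000676). In these 3 genes the TSLP libraries were nearly equal and far above both controls. Ero1l, an oxidase of protein folding in the endoplasmic reticulum, rose by 0.51 (SE 0.09, edgeR adjusted p = 0.00305), from 87.8 and 96.7 to 131 and 132. Egln1, the main oxygen sensor, rose by 0.44 from 96.6 and 114 to 147 and 139 (SE 0.10, edgeR adjusted p = 0.0096). Ndrg1, a stress-responsive gene of cell differentiation, rose by 0.56 from 12.2 and 16.2 to 20.3 and 21.5 (SE 0.14, edgeR adjusted p = 0.015). Again no control library reached a TSLP library in any of the 3. Higd1a, a small mitochondrial protein induced by hypoxia, fell by 0.70 from 234.7 and 238.4 to 153 and 138 (SE 0.09, edgeR adjusted p = 0.000753). Ankrd37, an ankyrin-repeat gene known as a HIF target, fell by 0.57 from 29.8 and 34.2 to 21.2 and 21.8 (SE 0.11, edgeR adjusted p = 0.00387). Hilpda, of lipid droplets, and P4ha1, of collagen hydroxylation, differed by 0.24 and 0.16 and did not pass. On the RPKM scale neither Higd1a (-0.32) nor Ankrd37 (-0.19) passed. Known HIF targets thus moved in both directions in the count fit, and the share that fell was near that of all genes.

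**Figure D2:**
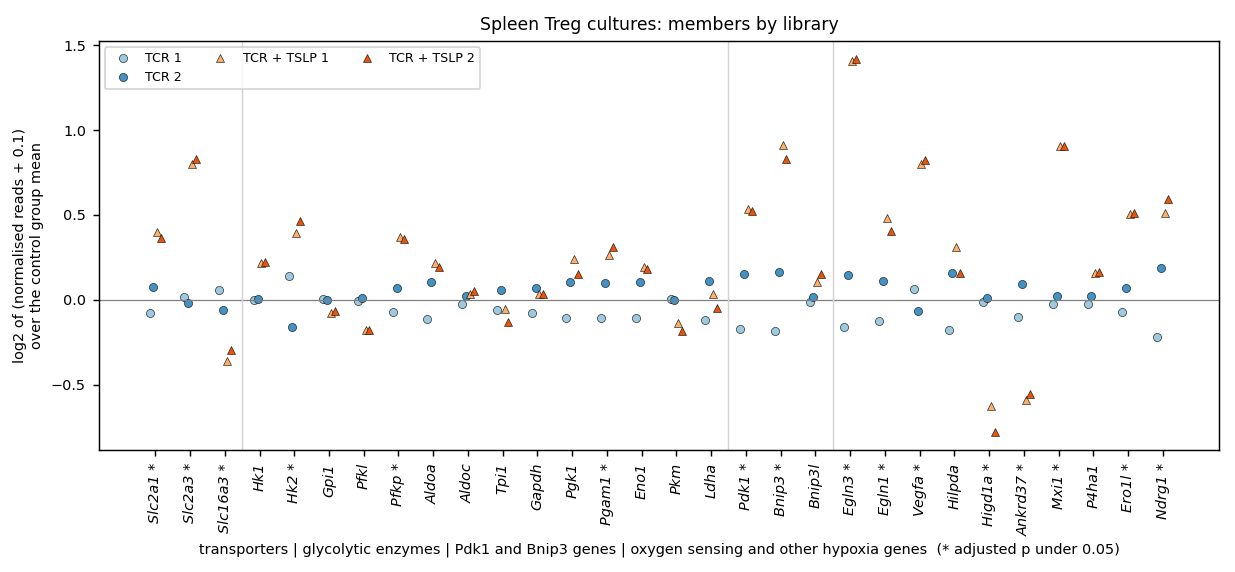
Log2 of normalised reads over the mean of the TCR group for each member in the 4 spleen libraries, ordered by role, with a star for an adjusted p under 0.05. Egln3, Mxi1, Bnip3, Slc2a3 and Vegfa lie highest with TSLP (log2 differences 0.81 to 1.41), and Higd1a, Ankrd37 and Slc16a3 lie below 0.

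Transcript length moved with the TSLP result. The median log2 difference of all genes was -0.74 for transcripts of 500 to 1000 bp, -0.23 for 1000 to 2000 bp, 0.10 for 2000 to 4000 bp and 0.20 for 4000 to 8000 bp. The 13 members that rose had a median length of 3531 bp, and 11 of them were over 2500 bp, whereas the 3 that fell were 904 to 2481 bp long. With the trend over length removed, an alternative in which each gene is compared with genes of like length, 14 members were higher and 5 lower. Of all 13214 genes, 2767 were higher and 2729 lower there. Egln3 (1.31), Bnip3 (0.998), Mxi1 (0.69), Vegfa (0.63), Slc2a3 (0.62) and Higd1a (-0.62) kept their direction and passed there too. Hk2 (0.22), Pfkp (0.17), Pdk1 (0.31) and Egln1 (0.27) no longer passed, and Ankrd37 turned to 0.03. Aldoa (0.39), Gapdh (0.40), Pgk1 (0.30), Eno1 (0.30) and Hilpda (0.77) then passed as higher, and Gpi1 (-0.20), Pfkl (-0.37) and Pkm (-0.23) as lower. With a trend over GC content removed as well, an alternative added after seeing the data, Ero1l was at 0.06 and did not pass. The part of length and GC content in the TSLP result was not tested further. Leaving out either TSLP library ended the calls of Slc2a1, Pfkp, Pgam1 and Slc16a3, leaving out TSLP replicate 2 those of Hk2 and Ndrg1, and leaving out TSLP replicate 1 that of Egln1. Egln3, Slc2a3, Bnip3 and Mxi1 passed the test under every alternative that gave them a value.

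**Figure D3:**
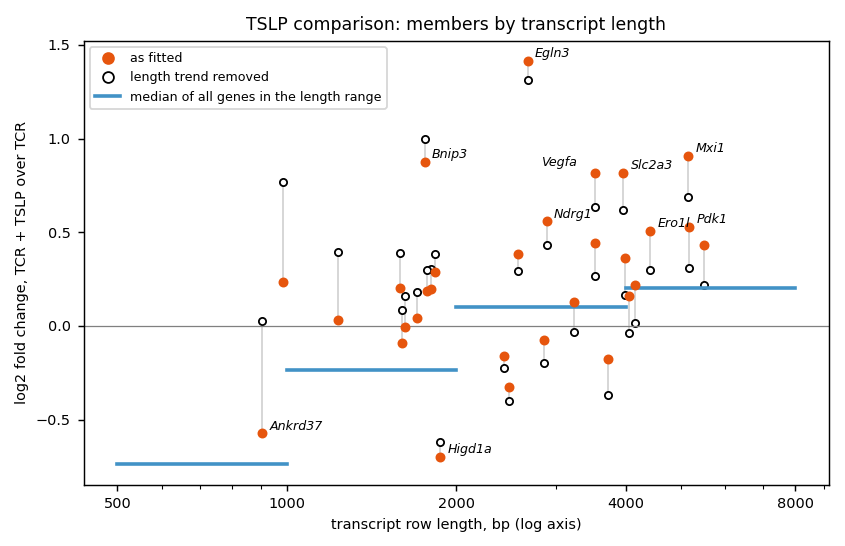
Log2 difference with TSLP against transcript length (log axis) for the 30 members, as fitted and with the length trend removed, with the median of all genes in each length range as a bar. The bars climb from -0.74 at 500 to 1000 bp to 0.20 at 4000 to 8000 bp, and Egln3 stays above 1 either way.

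The promoters of the 4 members with the smallest adjusted p among those that rose and have a window in the RefSeq table are shown because HIF binds a short core motif. The windows hold the 250 bases before the RefSeq start site in GRCm38.p6, 5′ to 3′ on the gene's strand, and capitals mark ACGTG or GCGTG on either strand, so a capital CACGT or CACGC is a match on the other strand. They lie at chr12:54203875-54204124 (minus strand) for Egln3, chr19:53310256-53310505 (plus) for Mxi1, chr17:46032378-46032627 (minus) for Vegfa and chr7:138909507-138909756 (minus) for Bnip3.
Egln3: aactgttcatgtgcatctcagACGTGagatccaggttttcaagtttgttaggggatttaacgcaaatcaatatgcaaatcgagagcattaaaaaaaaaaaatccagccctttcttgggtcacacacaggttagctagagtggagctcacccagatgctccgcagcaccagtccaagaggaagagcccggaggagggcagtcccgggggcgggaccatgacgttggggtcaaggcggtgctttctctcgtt
Mxi1: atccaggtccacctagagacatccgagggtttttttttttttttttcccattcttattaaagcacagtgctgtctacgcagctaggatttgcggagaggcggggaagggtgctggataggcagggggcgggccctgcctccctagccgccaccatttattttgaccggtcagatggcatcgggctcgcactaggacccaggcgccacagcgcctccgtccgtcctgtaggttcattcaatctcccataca
Vegfa: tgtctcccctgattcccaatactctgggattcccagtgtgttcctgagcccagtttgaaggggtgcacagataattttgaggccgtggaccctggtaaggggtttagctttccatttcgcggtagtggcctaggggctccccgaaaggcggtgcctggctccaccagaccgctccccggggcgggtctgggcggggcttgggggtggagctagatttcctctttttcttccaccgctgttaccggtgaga
Bnip3: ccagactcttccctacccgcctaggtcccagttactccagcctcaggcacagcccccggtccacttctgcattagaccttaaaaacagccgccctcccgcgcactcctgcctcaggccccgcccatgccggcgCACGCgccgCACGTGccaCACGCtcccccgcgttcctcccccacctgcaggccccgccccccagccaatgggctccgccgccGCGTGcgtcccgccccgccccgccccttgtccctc
Bnip3 held 5 matches, Egln3 held 1, and Mxi1 and Vegfa held none in these windows. The motif CACGTG holds ACGTG on both strands, so each CACGTG was counted as 2 matches. Of the 27 members with a window, 22 (81.5%) held at least 1 match and 16 (59.3%) held 2 or more. Among all 32851 windows of the table these shares were 38.6% and 16.7%, and among the 12373 windows of genes tested in the TSLP comparison 54.9% and 26.7%. Ldha, which did not pass the test, held 5 matches by this count, and Ankrd37, which was lower with TSLP, held 4. The matches of Ldha included 2 CACGTG and those of Bnip3 included 1, so Ldha held fewer separate sites than Bnip3. A match describes letters and says nothing of binding.

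Other genes of the same pathways were read from the same fit, where 22.7% of all genes tested were higher with TSLP and 23.1% lower. Of 15 genes of the HIF machinery 4 were higher and 4 lower with TSLP. Hif1a, the oxygen-regulated subunit, was at 158 ± 13.0 CPM without TSLP and 346 ± 7.49 with it (SD, n = 2 each), a log2 difference of 1.13 (SE 0.09, edgeR adjusted p = 0.000159). Egln2, the third prolyl hydroxylase gene of this family, was lower by -0.70, and Tceb2, which encodes elongin B of the VHL ubiquitin ligase, by -1.31. Tceb2 has a row of only 508 bp and was at -0.26 with the length trend removed. Of 20 other hypoxia targets tested, 14 were higher and 3 lower, with a median of 0.64. Pfkfb3 and Pfkfb4 are in this list and also in the list of other glycolysis genes below. Rbpj, the DNA-binding partner of Notch, rose by 1.18, Bhlhe40, a transcription factor, by 1.03, and Wsb1, a ubiquitin ligase subunit, by 0.64. With the length trend removed these differences were smaller, at 0.97, 0.87 and 0.57 in that order, and passed the test.

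Of 18 other glycolysis genes tested, 6 were higher and 3 lower with TSLP. For this list and the pentose phosphate and pyruvate lists below, the shares over all genes were 22.7% higher and 23.1% lower. Pfkfb3, which makes the activator of phosphofructokinase, rose by 0.63, and Adpgk, the ADP-dependent glucokinase, by 0.65. Eno3, the muscle-type enolase, fell by 1.28 (edgeR adjusted p = 0.000159). In the pentose phosphate pathway 3 of 10 genes were higher and 2 lower: G6pdx, its entry enzyme, differed by 0.43, Pgls by -1.22 and Taldo1 by -0.51. Of 12 genes for the entry of pyruvate into mitochondria 3 were higher and 2 lower, among them Pdp1, the phosphatase that opposes Pdk1, at 0.80, Dlat at 0.49 and the pyruvate carrier subunit Mpc2 at -0.85. Myc, a transcription factor that drives glycolytic genes in activated T cells, rose by 0.89 (edgeR adjusted p = 0.00129). With the length trend removed Taldo1 (-0.17), Dlat (0.29) and Mpc2 (-0.20) no longer passed.

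The second comparison asks which members differ between lung Tregs that lack Crlf2 and their controls. It held a single call among the members: Ero1l was higher in Crlf2-deleted libraries, and the other 29 did not pass. Over all 12717 genes tested 0.771% were called higher and 1.01% lower, 1.79% in all. The median log2 difference was 0.0044 over the members and -0.044 over all genes. Groups of 3 did not overlap for 12 of the 30 members, against 22.0% of all genes. On the RPKM scale 762 genes were called higher and 94 lower, against 98 and 129 in the count fit, and the median of all genes was 0.21. On library totals alone it was 0.14, with 137 higher and 57 lower. DESeq2 called 3 members, against 931 of all 17184 genes with reads.

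Ero1l (chr14:45283087-45318572, minus strand) read 43.7, 52.7 and 50.1 CPM in lung controls 1 to 3 and 95.1, 83.9 and 94.2 in Crlf2-deleted libraries 1 to 3. The groups were separated by more than their own width, a log2 difference of 0.91 (SE 0.15, edgeR adjusted p = 0.0285). Leaving out any single library other than lung control 3 took the adjusted p to between 0.0593 and 0.184. Without lung control 3 the log2 difference was 0.94 and the call held. Over all alternatives the log2 difference of Ero1l ranged from 0.84 to 1.09.

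Ndrg1 and Hilpda came next among the oxygen-response genes, without passing the test. Ndrg1 read 36.9, 35.6 and 53.7 in controls and 69.8, 105 and 86.5 in Crlf2-deleted libraries (log2 difference 1.03, SE 0.22, edgeR adjusted p = 0.0653). Hilpda read 29.8, 45.8 and 38.9 against 78.9, 53.6 and 84.3 (log2 difference 0.94, SE 0.23, edgeR adjusted p = 0.0935). All 3 Crlf2-deleted libraries lay above all 3 controls in both genes. Without lung control 3 Ndrg1 differed by 1.27 and passed the test, as it did on the RPKM scale and on library totals, while Hilpda differed by 0.99 and did not pass. Both passed with DESeq2.

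Several enzymes and transporters had a control group that was split by lung control 3. Hk2 read 8.29 and 15.7 in lung controls 1 and 2 but 40.3 in lung control 3, and 7.89, 6.57 and 9.87 in Crlf2-deleted libraries. Its log2 difference was -1.42 (edgeR adjusted p = 0.253) with all libraries and -0.50 without lung control 3. Slc16a3 read 18.9, 32.2 and 94.7 in controls against 28.4, 26.2 and 24.9, so that its difference of -0.90 became 0.12 without that library. Both genes were high in the control with the highest myeloid and erythroid markers. Hk1 read 228, 246 and 118 in controls and 153, 156 and 170 in Crlf2-deleted libraries, a difference of -0.30 that became -0.56 and passed as lower without lung control 3. Pfkl likewise was low only in lung control 3 among the controls, at 79.0 against 196.5 and 198.4, with 158, 139 and 168 in Crlf2-deleted libraries. Without lung control 3 the members held 2 higher calls, Ero1l and Ndrg1, and 1 lower call, Hk1. Of all 12931 genes tested in that setting, 252 were higher and 280 lower.

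Summed markers of T cells and of other cells also differed among the lung libraries. The 9 Treg and T cell markers in the tables summed to 308 to 385 RPKM in lung controls and 553 to 717 in Crlf2-deleted libraries, with no overlap between groups. Macrophage and dendritic markers summed to 60.0 and 92.3 RPKM in lung controls 1 and 2 and to 1235 in lung control 3, against 416 to 505 in Crlf2-deleted libraries, so that the groups overlapped only through lung control 3. Neutrophil markers summed to 6.95 to 8.35 RPKM in every lung library except lung control 3, which had 123. Of the 11 macrophage and dendritic markers in the tables none was at 0 in all lung libraries. Their part in the results was not tested. In these bulk libraries a smaller share of cells that express a gene and less RNA per cell cannot be told apart.

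**Figure D4:**
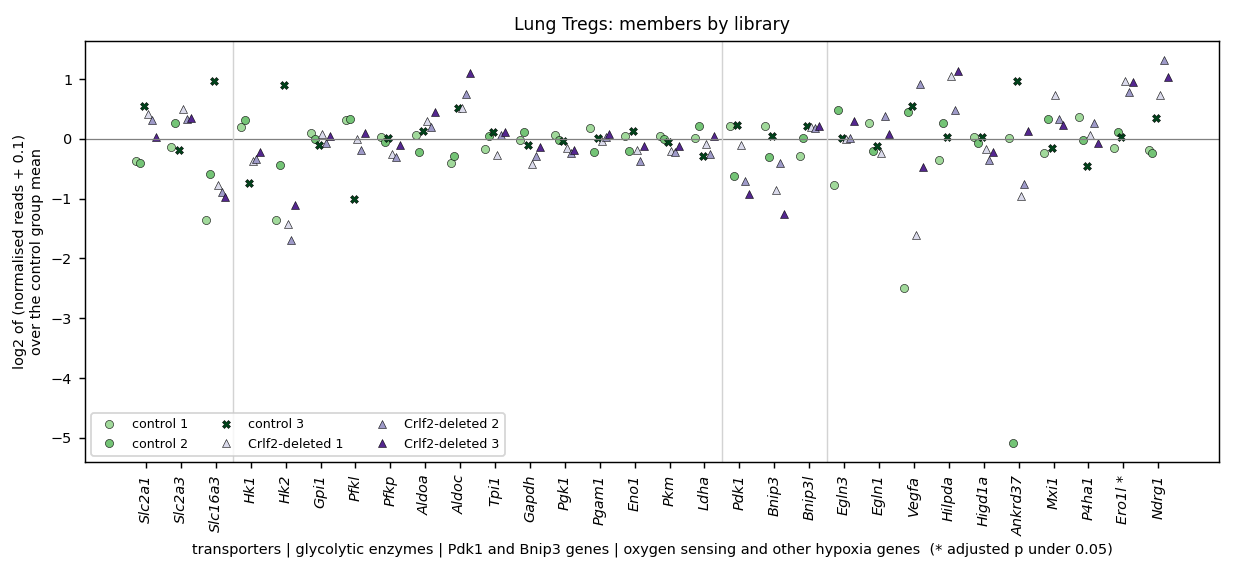
Log2 of normalised reads over the mean of the lung control group for each member in the 6 lung libraries, ordered by role, with a star for an adjusted p under 0.05. Ero1l is the starred member, and lung control 3 lies far above the other controls for Hk2 (40.3 against 8.29 and 15.7) and Slc16a3 (94.7 against 18.9 and 32.2).

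No gene of the other glycolysis (18 tested), pyruvate (12) or pentose phosphate (10) lists passed the test between the lung groups. Of all genes tested 1.79% did. Of 14 genes of the HIF machinery 1 was higher in Crlf2-deleted libraries, Arnt2, a partner subunit for HIF-type factors, at 64.0 ± 10.9 against 17.9 ± 5.25 CPM (SD, n = 3 each, log2 difference 1.88, edgeR adjusted p = 0.0205). Of 17 other hypoxia targets 2 were higher: Rbpj by 0.99 (edgeR adjusted p = 0.0285) and Ddit4, an inhibitor of mTORC1, by 0.93 (edgeR adjusted p = 0.0446). Leaving out any single library other than lung control 3 ended all 3 calls. Hif1a differed by -0.08 (edgeR adjusted p = 0.861), with 472 ± 112 in controls and 445 ± 10.7 in Crlf2-deleted libraries. Myc was at 113 ± 25.3 in controls and 57.7 ± 7.80 in Crlf2-deleted libraries, a log2 difference of -0.99 that missed the threshold (edgeR adjusted p = 0.0506).

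The lung control and TCR groups were also set side by side. They differ in tissue, culture, stimulation, immunization and genotype, and possibly in library kit, all at once, so these causes cannot be told apart. They are also the control groups of the other comparisons. Of the 30 members 22 were lower in lung controls, 2 higher and 6 not called, with a median log2 difference of -1.43 against 0.0020 over all 13325 genes tested. Among all genes 26.3% were lower and 25.5% higher, 51.8% in all. The groups did not overlap for 27 members, against 71.2% of all genes. On the RPKM scale 1179 genes were higher and 6628 lower, against 3400 and 3505 in the count fit, and the median of all genes was -0.45. On library totals alone that median was 0.21.

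Of the 14 enzymes 12 were lower in lung controls, by very different amounts. Gapdh, the enzyme that couples glycolysis to NADH, read 4420 and 4823 CPM in the TCR group and 420, 453 and 396 in lung controls (log2 difference -3.45, SE 0.12, edgeR adjusted p = 6.59e-06). Pgk1, which makes the first ATP of the pathway, read 1570 and 1791 against 128, 118 and 119 (log2 difference -3.79, edgeR adjusted p = 6.59e-06). Tpi1, of triose isomerisation, read 1452 and 1549 against 106, 121 and 129 (log2 difference -3.66, edgeR adjusted p = 7.47e-06). These 3 enzymes of neighbouring steps had the largest decreases among the 14, with no overlap between groups. Ldha (-1.39), Pkm (-1.62), Aldoa (-1.52), Pfkl (-1.42), Gpi1 (-1.04) and Eno1 (-0.95) fell by less. Hk1 read 186 and 184 against 203, 216 and 105, a difference of -0.09 with overlapping groups. Hk2 read 94.2 and 75.4 against 7.38, 13.8 and 35.9 (log2 difference -2.11), and did not pass without lung control 2 or without either TCR library. Without lung control 3 the Hk2 difference was -3.13 and passed. Leaving out TCR replicate 1 took the members called from 24 to 16, and leaving out TCR replicate 2 took them to 14. Pfkl, Vegfa, Ankrd37 and Bnip3l were among the others that did not pass with a TCR library left out.

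Oxygen-response genes split in this comparison. Vegfa had 502 and 444 reads in TCR libraries and 2, 4 and 31 reads in lung controls (log2 difference -3.50), and Ankrd37 had 769 and 857 against 25, 0 and 69 reads (log2 difference -3.22). Without lung control 3 these differences were -4.70 for Vegfa and -3.81 for Ankrd37. Counting error is large at such low reads. Egln1 (-3.14), Higd1a (-1.96), Egln3 (-1.53) and Ero1l (-1.11) were lower too. Ndrg1 was higher in lung controls, at 32.8, 31.2 and 47.8 CPM against 12.4 and 16.2 (log2 difference 1.39, edgeR adjusted p = 0.00704), but at 0.30 on the RPKM scale it did not pass, nor did it without TCR replicate 1. Egln3 did not pass without TCR replicate 2. Bnip3l was at 133, 161 and 189 against 96.1 and 96.5 (log2 difference 0.74, edgeR adjusted p = 0.0136), a difference that turned to -0.19 on the RPKM scale. Hif1a was at 418 ± 98.3 (n = 3) in lung controls and 160 ± 11.4 (n = 2) in the TCR group (SD, log2 difference 1.38, edgeR adjusted p = 0.00181). On the RPKM scale its difference was 0.39 and did not pass. In the count fit Hif1a was thus higher in the group where 22 of the 30 members were lower.

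For 6 pairs of related genes the share of their summed RPKM taken by the gene named first was read in each library, as a description without a test. Hk2 took 27.6 and 23.6% of hexokinase 1 and 2 without TSLP and 28.1 and 29.0% with it. In lung controls it took 2.67, 4.60 and 20.5%, the last in lung control 3, and in Crlf2-deleted libraries 3.08 to 4.19%. With all transcript rows of a gene summed, the Hk2 share was 14.7% on average in the TCR group and 16.7% with TSLP, since Hk1 has several rows. Hk1 thus took the larger part of this pair in every library, and the Hk2 share was lowest in lung libraries other than lung control 3. Other hexokinase genes were not part of this share.

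Slc2a3 took 21.3 and 19.2% of GLUT1 and GLUT3 in TCR libraries, 25.1 and 25.9% with TSLP, 31.4 to 55.3% in lung controls and 44.1 to 48.9% in Crlf2-deleted libraries. Pfkp took 43.4 and 45.5% of its pair with Pfkl without TSLP and 54.0 and 53.8% with it. Egln3 took 38.4 and 39.6% of its pair with Egln1 without TSLP and 54.9 and 56.4% with it. All 3 shares were separate between the spleen groups. Bnip3 took 45.8 and 51.2% of its pair with Bnip3l without TSLP, 62.5 and 60.3% with it, 8.21 to 13.5% in lung controls and 3.82 to 6.86% in Crlf2-deleted libraries. Aldoc took under 2% of aldolase A and C in every library, at most 1.91%. Pair shares do not depend on the library scale but do depend on transcript length effects between the pair.

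**Figure D5:**
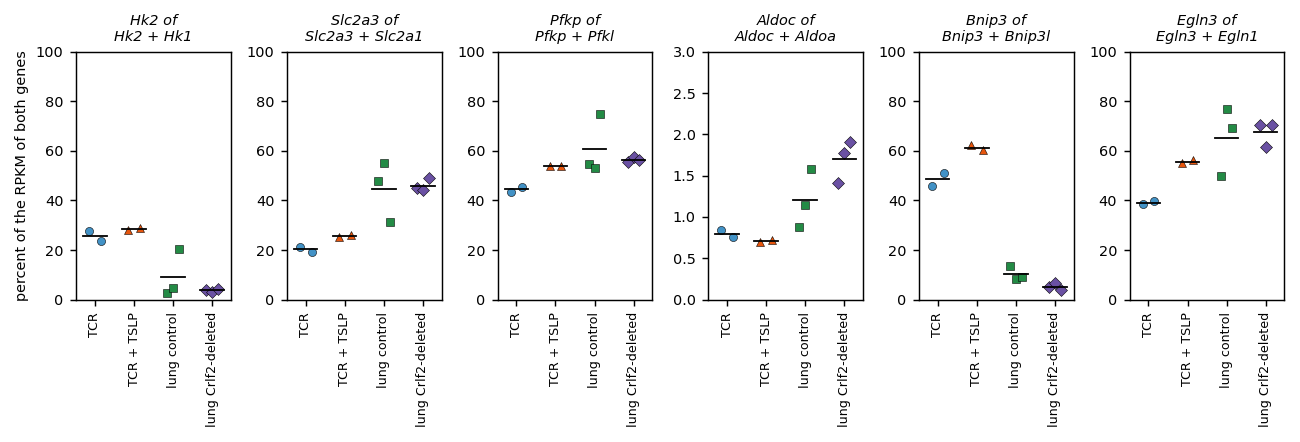
Share of a gene pair's summed RPKM taken by the first gene, in percent, with 1 point per library and a panel per pair, on an axis that ends at 3 for Aldoc. Hk2 lies at 2.67 to 4.60% in lung libraries except lung control 3 (20.5%), and Pfkp, Bnip3 and Egln3 shares are higher in both TSLP libraries than in both TCR libraries.

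Pkm, pyruvate kinase, is spliced to an M1 or an M2 form that differ by a single exon, M2 being the form of proliferating cells. The tables list both as rows that share all other exons, and the row of the M2 form held more reads than the M1 row in all 10 libraries. The excess was 2.859 and 3.395% of the M2 row without TSLP and 4.84 and 4.98% with it. It was 6.32 to 8.49% in lung controls and 7.54 to 7.91% in Crlf2-deleted libraries. The spleen groups did not overlap each other or the lung groups, while the lung groups overlapped. The rows were told apart by translating the matching transcripts, and since single reads were 50 bp long few of them fall in the exon that differs.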

How the data were processed

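RNA was sequenced from 10 Treg libraries in 4 groups. Per the labels' protocols, single-end reads of 50 bp came from a NovaSeq instrument, with total RNA kits after rRNA removal for TCR-stimulated spleen Tregs; the kit for lung Tregs is not stated apart. Tools named in the submitters' processing notes are TopHat2 2.2.1 with Bowtie2 2.2.6, bedtools 2.25.0, SAMtools 0.1.8 and edgeR, on the mm10 build. For each library the deposited file pairs read counts with the authors' RPKM over 31682 RefSeq transcript rows. The deposited RPKM divides by a total that exceeds the gene reads, which were 37.8 to 44.5% of it in spleen and 14.9 to 23.6% in lung libraries, so RPKM differs from TMM scaling by a shift.

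From the counts, 1 row per symbol (highest mean reads) was fitted in R 4.3.3 with edgeR 4.0.16 (TMM, filterByExpr with a count minimum of 10, robust quasi-likelihood test, two-sided), with Benjamini-Hochberg adjustment over all genes tested and a threshold of 0.05. Only the groups compared entered a fit. CPM values are counts over the TMM-scaled library total within that comparison, so values of 1 gene differ slightly between comparisons. limma 3.58.1 on log2(RPKM + 1), DESeq2 1.42.0, other scalings, other filters and omission of each library were alternatives. Tested on simulated counts for the TSLP comparison (13061 genes), the fit called 82 of 98 genes with a 2-fold change and 96 of 99 with a 4-fold change. For the Crlf2 comparison (12468 genes) it called 28 of 99 and 74 of 96, and for lung control against TCR (12997 genes) 18 of 99 and 60 of 97. Calls of unchanged genes numbered 8, 3 and 2 in that order. Far fewer genes were changed in the simulation than were called for TSLP and for lung control against TCR. The adjusted p was therefore stricter in the simulation, and these rates do not carry over to those 2 fits.

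The members and lists were chosen with earlier results of these data known. Any of the 30 members may be named, with full statistics for those past the threshold in the TSLP or Crlf2 comparison and for isoenzyme pairs; from each other list the up to 3 genes with the smallest p were named, plus Hif1a, Myc and Crlf2. Ldha, Gapdh, Ndrg1, Hilpda and single genes of the lung control and TCR comparison were given fuller values after these were seen. Gene and promoter coordinates come from RefSeq for GRCm38.p6; 27 of 30 members had a promoter window.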

Additional observations from a re-analysis of the deposited data

How the results depend on the processing

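Of the 16 members called in the TSLP comparison, Egln3, Slc2a3, Bnip3 and Mxi1 passed under every alternative that gave them a value. The call of Ero1l in the lung rested on few libraries. With all 4 groups in a common fit the TSLP comparison gave 1356 genes and 7 members, and with genes of mean RPKM of at least 5 alone it gave 3659 genes. That RPKM filter gave 3485 genes between lung control and TCR, where fewer genes were tested. In the Crlf2 comparison (227 genes, 1 member) DESeq2 called 931 genes and 3 members, limma on RPKM 856 and 4, the common fit 873 and 3, and summed transcripts 134 genes, while library totals, no filter and the RPKM filter each gave 2 members. Leaving out 1 library gave 3212 to 8624 genes and 10 to 22 members for TSLP, 4 to 532 genes and 0 to 3 members for Crlf2, and 3467 to 7541 genes and 14 to 26 members for lung control against TCR. The lowest Crlf2 count came without Crlf2-deleted replicate 1 and the highest without lung control 3. Whether replicate numbers pair samples is not given by the labels. Deviations of same-numbered libraries had correlations of -0.125 for TSLP and -0.148 to 0.084 for Crlf2. With 2 libraries per group the TSLP correlations can differ only in sign, so they cannot settle the pairing. With the replicate block 5818 genes were called for TSLP, 121 genes and 0 members for Crlf2, and 7416 genes for lung control against TCR, and Pfkl was at 0.085 for Crlf2 and Hk1 at 0.17 for lung control against TCR. With crossed pairing the TSLP count was 7106.

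Some log2 differences changed sign, and apart from Slc16a3, Ankrd37 and Bnip3l these did not pass the test to begin with. On the RPKM scale, for TSLP, Gpi1 was at 0.30, Pfkl at 0.19, Pkm at 0.21, Ldha at 0.37 and Slc16a3 at 0.043, for Crlf2, Hk1 at 0.17, Pfkl at 0.45 and Hif1a at 0.35, and for lung control against TCR, Bnip3l at -0.19. On library totals, for TSLP, Gpi1 was at 0.16, Pfkl at 0.050, Pkm at 0.069 and Ldha at 0.22, for Crlf2, Pfkl at 0.14 and Hif1a at 0.078, and for lung control against TCR, Hk1 at 0.15. Ldha for TSLP was at 0.0091 with DESeq2, 0.034 with no filter and 0.036 in the common fit, and Pfkl for Crlf2 was at 0.0070 and 0.011 in these last settings. With the length trend removed, for TSLP, Ldha was at 0.16, Bnip3l at -0.035, Ankrd37 at 0.028 and P4ha1 at -0.039, and with length and GC trends removed Ldha was at 0.19, Bnip3l at -0.27, Ankrd37 at 0.049 and P4ha1 at -0.18, with Hif1a at 0.013 for Crlf2. Hk1 between lung control and TCR was at 0.32 with the RPKM filter. Leaving out 1 library gave ranges of -0.035 to 0.13 for Gapdh and -0.12 to 0.13 for Ldha in the TSLP comparison, -0.34 to 0.21 for Pfkl, -1.31 to 0.12 for Slc16a3 and -0.27 to 0.044 for Hif1a in the Crlf2 comparison, and -0.26 to 0.22 for Hk1 between lung control and TCR. The cause of these changes was not tested. Over all 30 members, including those not named with a value, 18 had a log2 difference of either sign over the Crlf2 alternatives, 10 over the TSLP alternatives and 5 between lung control and TCR. Lung control replicate 2 had the fewest gene reads, 1439675, with 4 reads of Vegfa and 0 of Ankrd37.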
